A study of Homo sapiens with 4 samples.

Results

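The G2/M and mitotic genes are a list of 42 genes whose products drive or carry out cell division. They were chosen by name and not by their values on these arrays, though earlier results of these data were known. All non-control probes whose accession belonged to a listed gene were taken, which gave 52 of the 41000 probes and 41 of the 42 genes. Of these, 51 probes of 40 genes passed the filters and were tested among 39152 probes and 16882 named genes. UBE2C had no probe matched by accession. The only probe of FOXM1 was left out of the test because its spot on the replicate 1 array of sh-G1 carried an outlier mark.

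Total RNA of A2780s cells, a human ovarian adenocarcinoma line, was compared on 4 Agilent arrays of 2 colours to ask which genes respond when GALNT3, an enzyme that starts mucin-type O-glycosylation, is knocked down. The clones sh-G1 and sh-G2 stably carried the same GALNT3 shRNA in the pSilencer 4.1 puro vector and were isolated under puromycin, and ctrl was a clone of the same line mock-transfected with that vector. Against ctrl, sh-G1 and sh-G2 took 2 arrays each, with the knockdown RNA in Cy5 on replicate 1 and in Cy3 on replicate 2. Every group was therefore 1 clone, the same ctrl clone stood on all arrays, and differences between clones and effects of the knockdown cannot be told apart. The labels write the line of ctrl both as A2780s and as A27803, and no source says if both arrays of a clone came from a single RNA extract. The values below are log2 ratios of knockdown over ctrl after loess normalisation, and a gene with several probes is given by its brightest one. Because both clones were set against the same ctrl RNA, their ratios are not independent of each other.

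Entry into mitosis is driven by CDK1 bound to A- and B-type cyclins, which CDC25 phosphatases switch on and WEE1 and PKMYT1 hold back. Aurora and Polo-like kinases then build the spindle, the checkpoint holds the cell until every kinetochore is attached, and the anaphase-promoting complex (APC/C) releases the sister chromatids by removing securin and cyclin B. Most of these genes are transcribed in G2 through promoter elements bound by the MuvB complex with B-MYB and FOXM1, and are repressed in resting cells by the DREAM complex, so that their summed mRNA level is widely read as a measure of how many cells of a culture are dividing. In RNA of whole cultures, fewer cells in G2 or mitosis and less mRNA in each of them cannot be told apart.

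The probe of GALNT3 gave log2 ratios of -0.09 and 0.08 on the sh-G1 arrays and of 0.12 and -0.14 on the sh-G2 arrays. Its mean over the clones was -0.01 ± 0.04 (SE, n = 2 clones; limma, Benjamini-Hochberg adjusted p = 0.963). The probe was among the dimmest kept, with 0.411% of the probes dimmer, and it was well above background in the knockdown channel on 2 of 4 arrays and in the ctrl channel on all 4. A probe this dim does not check the labels, and the clones are called knockdown clones after their labels. According to the methods, semi-quantitative RT-PCR and Western blot were used to choose the clones, and those measurements were not analysed here. The share of spots well above background on an array was 88.1% to 97.0% in the knockdown channel and 95.9% to 97.6% in the ctrl channel, and 0 spots were saturated. All 11 ovarian carcinoma markers examined (PAX8, WT1, EPCAM, KRT7, KRT8, KRT18, KRT19, MUC16, MUC1, CDH1 and VIM) passed the filter, as did 6 of 7 markers of blood, endothelial and stromal cells, so the presence of a signal did not check the labelled cell type. Of the carcinoma markers, KRT8 (mean -1.03, adjusted p = 0.032 by limma) and KRT18 (mean -2.32, adjusted p = 0.036 by limma) were called lower. EPCAM averaged -0.33 (limma adjusted p = 0.405). The remaining carcinoma markers, the keratins KRT7 and KRT19 included, had means between -0.10 (MUC1) and 0.04 (KRT19). On the whole array, 0 probes were called once ctrl was assumed to vary as much as sh-G1 and sh-G2 do. DCN, a stromal marker, stood at -4.12 and -4.37 in sh-G1 and at -2.07 and -2.11 in sh-G2 (limma adjusted p = 0.187), while the other 5 markers of other cell types had means between -0.07 and 0.04. The part of these differences in the values of the mitotic genes was not tested.

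No G2/M or mitotic gene passed the test applied to all genes, and their mean log2 ratios lay between -0.10 (CDC25B) and 0.35 (BUB1). Of the 40 genes, 0 were called higher and 0 lower in the knockdown clones by limma at an adjusted p of 0.05, where 0.184% and 0.906% of all named genes were called. At an unadjusted p of 0.05 there were 5 genes on the high side (PTTG1, NDC80, KIF20A, BUB1 and BUB1B) and 0 on the low side, against 6.24% and 9.09% of all named genes. By the study's kind of criterion, a ratio of at least 1.5-fold on both arrays of a clone, 0 genes passed in sh-G1, where 2.29% of all named genes did, and 0 passed in sh-G2, where 2.77% did. A single array reached 1.5-fold for 2 of the 40 genes (15.7% of all), which were BUB1 and ASPM. The 95% intervals of all 40 genes lay within 1.5-fold of no change, which is 0.585 on the log2 scale. The highest upper bound was 0.582 (BUB1), only just inside, and the lowest lower bound was -0.31 (TOP2A). These intervals rest on 2 clones and leave out the spread of ctrl clones, of which there was 1. They would be wider with that spread counted, so they do not exclude a mean change of 1.5-fold.

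The values nevertheless lay more often above 0 than below. The mean over the clones was above 0 for 32 of the 40 genes and below 0 for 8. The share of all named genes above 0 in this mean was not counted, and their median was -0.0039. Both clone means were above 0 for 21 genes, where 28.8% of all named genes had this pattern, and both were below 0 for 3 genes, against 32.6%. The ratio was above 0 on all 4 arrays for 8 genes (7.08% of all) and below 0 on all 4 for 0 genes (10.3% of all). Leaving out 1 array leaves fewer arrays to satisfy, and the share of all named genes was not counted for such sets. Without the replicate 1 array of sh-G1 or of sh-G2, 17 of 41 or 13 of 40 genes lay above 0 and 1 below. Without the replicate 2 array of sh-G1 or of sh-G2, 9 or 8 of 40 genes lay above 0 and 0 below. The median of the 40 means was 0.10, with a range from -0.10 to 0.35, beside a median of 0.00 over all named genes. Taken apart, both arrays of sh-G1 lay above 0 for 13 genes (20.1% of all) and below 0 for 1 gene (21.2% of all), and those of sh-G2 lay above 0 for 17 genes (16.5% of all) and below 0 for 1 gene (19.9% of all). The sh-G1 median was 0.03 and the sh-G2 median 0.13, and the medians of all named genes were 0.00 and -0.01. These shares and medians are descriptions of the list and carry no test. A lean above 0 was not particular to this list, since the 22 genes of DNA replication and G1/S, described below, also had a median of 0.10.

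**Figure D1:**
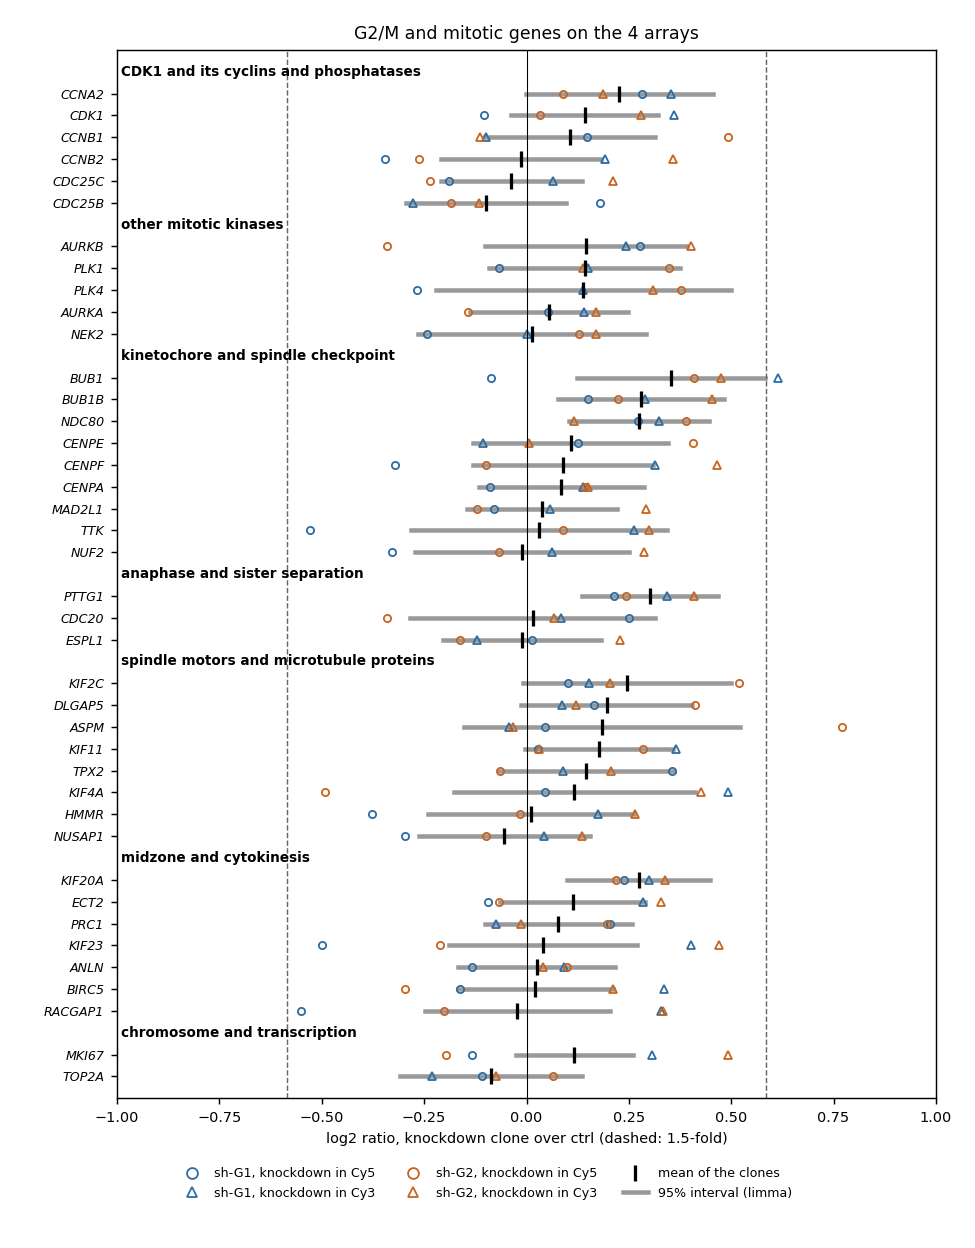
Log2 ratio of knockdown over ctrl (x axis) for the 40 tested G2/M and mitotic genes (y axis, grouped by role), with sh-G1 in blue, sh-G2 in orange, circles for knockdown RNA in Cy5 and triangles for knockdown RNA in Cy3. Black bars are the means of the clones, and 32 of the 40 lie above 0, beside a median of -0.0039 over all named genes. Grey bars are the 95% intervals from limma, which leave out the spread of ctrl clones. All of them lie between the dashed lines at 1.5-fold, that of BUB1 only just.

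Among CDK1, its cyclins and its phosphatases, 0 of 6 genes were called and the median of the means was 0.05. CDK1, the kinase that triggers mitosis, stood at -0.10 and 0.36 in sh-G1 and at 0.03 and 0.28 in sh-G2, with a mean of 0.14 ± 0.06 (SE, n = 2 clones; limma adjusted p = 0.468). In each clone the array with the knockdown RNA in Cy3 gave the higher value. CCNA2, the cyclin of S phase and early mitosis, was at 0.28 and 0.35 in sh-G1 and at 0.09 and 0.19 in sh-G2, and its mean of 0.23 ± 0.08 was the highest of this group (limma adjusted p = 0.379). All 4 values of CCNA2 lay above 0, and those of sh-G1 lay above those of sh-G2. CCNB1, the B-type cyclin whose destruction ends mitosis, had 0.15 and -0.10 in sh-G1 and 0.49 and -0.11 in sh-G2, and its dye-swapped arrays thus had opposite signs in both clones. The mean of CCNB1 was 0.11 ± 0.07 (limma adjusted p = 0.641). CCNB2, the second B-type cyclin, averaged -0.01, with -0.35 and 0.19 in sh-G1 and -0.26 and 0.36 in sh-G2. The phosphatases CDC25B and CDC25C, which remove the inhibitory phosphates of CDK1, had means of -0.10 ± 0.07 and -0.04 ± 0.06, and CDC25B was the lowest of the 40 genes. Its values were 0.18 and -0.28 in sh-G1 and -0.19 and -0.12 in sh-G2, so that 3 of 4 arrays lay below 0.

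Of the other mitotic kinases, 0 of 5 were called, with means between 0.01 and 0.14. PLK1, the Polo-like kinase of mitotic entry and spindle formation, had -0.07 and 0.15 in sh-G1 and 0.35 and 0.14 in sh-G2, and its mean was 0.14 ± 0.08 (SE, n = 2 clones; limma adjusted p = 0.577). A second, dimmer PLK1 probe averaged 0.22. AURKA, the Aurora kinase of the spindle poles, had 0.05 and 0.14 in sh-G1 and -0.14 and 0.17 in sh-G2 (mean 0.06 ± 0.07, limma adjusted p = 0.810). AURKB, the Aurora kinase of the chromosomal passenger complex, had 0.28 and 0.24 in sh-G1 but -0.34 and 0.40 in sh-G2 (mean 0.14 ± 0.08, limma adjusted p = 0.591), and for both Aurora kinases only the Cy5 array of sh-G2 lay below 0. NEK2, a kinase that separates centrosomes, averaged 0.01 by its brightest probe and -0.17 by the other. PLK4, which starts centriole duplication, had the largest distance between the clones among the 40 genes, with -0.07 as the mean of sh-G1 and 0.34 as that of sh-G2. A dimmer PLK4 probe had clone means of -0.06 and 0.07.

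Of the 9 kinetochore and spindle checkpoint genes, 3 reached an unadjusted p of 0.05 by limma, and 0 were called after adjustment. The anaphase genes had 1 of 3 at that p, and the midzone and cytokinesis genes 1 of 7. BUB1, a checkpoint kinase of the kinetochore, had the highest mean of all 40 genes, 0.35 ± 0.08 (SE, n = 2 clones; limma adjusted p = 0.236), which is 1.28-fold. Its values were -0.09 and 0.61 in sh-G1 and 0.41 and 0.48 in sh-G2, so that the Cy5 array of sh-G1 stood apart from the other 3. Without the Cy5 array of sh-G1 the mean of BUB1 was 0.53, and without the Cy3 array it was 0.18. BUB1B, which encodes the checkpoint protein BUBR1, was above 0 on all 4 arrays, with 0.15 and 0.29 in sh-G1 and 0.22 and 0.45 in sh-G2 (mean 0.28 ± 0.07, limma adjusted p = 0.270). NDC80, the microtubule-binding subunit of the outer kinetochore, was by its brightest probe also above 0 on all 4, with 0.27 and 0.32 in sh-G1 and 0.39 and 0.12 in sh-G2 (mean 0.28 ± 0.06, limma adjusted p = 0.228). A dimmer NDC80 probe lay at -0.31 on the Cy5 array of sh-G2. Its partner in the same complex, NUF2, lay at -0.33 and 0.06 in sh-G1 and at -0.07 and 0.29 in sh-G2 and averaged -0.01 ± 0.09. The remaining 5 kinetochore and spindle checkpoint genes (CENPE, CENPF, CENPA, MAD2L1 and TTK) had means between 0.03 and 0.11.

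Anaphase genes gave the smallest adjusted p of the list. PTTG1, which encodes securin, the inhibitor of separase, had 0.21 and 0.34 in sh-G1 and 0.24 and 0.41 in sh-G2. All 4 values lay above 0, and the mean was 0.30 ± 0.06 (SE, n = 2 clones; limma adjusted p = 0.193), or 1.23-fold. ESPL1, which encodes separase itself, averaged -0.01 ± 0.07, with 0.01 and -0.12 in sh-G1 and -0.16 and 0.23 in sh-G2. CDC20, the activator of the APC/C that the checkpoint holds, was at 0.25 and 0.08 in sh-G1 and at -0.34 and 0.07 in sh-G2, and its mean was 0.02 ± 0.10.

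Among the spindle motors and microtubule proteins 0 of 8 genes were called, and their median of 0.16 was the highest of the roles. KIF2C, a kinesin that shortens microtubules at kinetochores, was above 0 on all 4 arrays, with 0.10 and 0.15 in sh-G1 and 0.52 and 0.20 in sh-G2 (mean 0.24 ± 0.09, limma adjusted p = 0.390). DLGAP5, a stabiliser of spindle fibres, had 0.16 and 0.09 in sh-G1 and 0.41 and 0.12 in sh-G2 (mean 0.20 ± 0.07), and KIF11, the motor that pushes the spindle poles apart, had 0.03 and 0.36 in sh-G1 and 0.28 and 0.03 in sh-G2 (mean 0.18 ± 0.06). These 3 genes were the members of the group with every array above 0 by the brightest probe. A dimmer KIF11 probe lay at -0.03 on the Cy5 array of sh-G1. ASPM, a spindle pole protein, owed its mean of 0.18 ± 0.11 to 1 array, since it stood at 0.05 and -0.04 in sh-G1 and at 0.77 and -0.03 in sh-G2. Without that sh-G2 array its mean was -0.02. HMMR and NUSAP1, both microtubule-associated, averaged 0.01 ± 0.09 and -0.05 ± 0.07.

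In the group of the spindle midzone and cytokinesis, 0 of 7 genes were called, with means between -0.02 and 0.27. KIF20A, a kinesin needed for cytokinesis, had 0.24 and 0.30 in sh-G1 and 0.22 and 0.34 in sh-G2, which were nearly the same values in both clones (mean 0.27 ± 0.06, SE, n = 2 clones; limma adjusted p = 0.233). RACGAP1 and KIF23, the subunits of the centralspindlin complex, behaved differently. RACGAP1 had -0.55 and 0.33 in sh-G1 and -0.20 and 0.33 in sh-G2 and averaged -0.02 ± 0.08, and KIF23 had -0.50 and 0.40 in sh-G1 and -0.21 and 0.47 in sh-G2 and averaged 0.04 ± 0.08. For both, the sign followed the dye and not the clone. Of the chromosome and transcription genes, MKI67, the Ki-67 proliferation marker, had -0.13 and 0.31 in sh-G1 and -0.20 and 0.49 in sh-G2 (mean 0.12 ± 0.05, limma adjusted p = 0.457), again with the sign of the dye orientation. TOP2A, the topoisomerase that untangles chromosomes, had -0.11 and -0.23 in sh-G1 and 0.06 and -0.07 in sh-G2, and its mean of -0.09 ± 0.08 was among the lowest (limma adjusted p = 0.732). FOXM1, the transcription factor that activates many of these genes, gave 0.14, 0.15 and 0.17 on the 3 arrays without the outlier mark. With the marked spot kept, its mean was 0.15 (limma adjusted p = 0.450).

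The clones were then compared with each other. Of the 40 genes, 0 were called different between sh-G2 and sh-G1 by limma (0.184% of all named genes), and 0 passed at an unadjusted p of 0.05 (6.66% of all). The dimmer NDC80 probe, not used in these counts, had an unadjusted p of 0.036 by limma (adjusted p = 0.609). The value was higher in sh-G2 than in sh-G1 for 30 of the 40 genes, against 47.5% of all named genes, and the median distance was 0.11. The clone means had opposite signs for 16 of the 40, close to the share over all named genes (38.6%). PLK4 had the largest distance, 0.41 ± 0.16 (SE from 4 arrays), followed by ASPM with 0.37 ± 0.20 and TTK, a checkpoint kinase, with 0.33 ± 0.19. By their dimmer probes, sh-G2 minus sh-G1 was 0.12 ± 0.10 for PLK4 and -0.13 ± 0.18 for ASPM. On the other side, CDC20 and KIF4A, a chromosome-bound kinesin, were each 0.30 lower in sh-G2. The spread in this comparison is that of the hybridisations, with 1 degree of freedom per gene before moderation, and says nothing of the spread between clones.

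**Figure D2:**
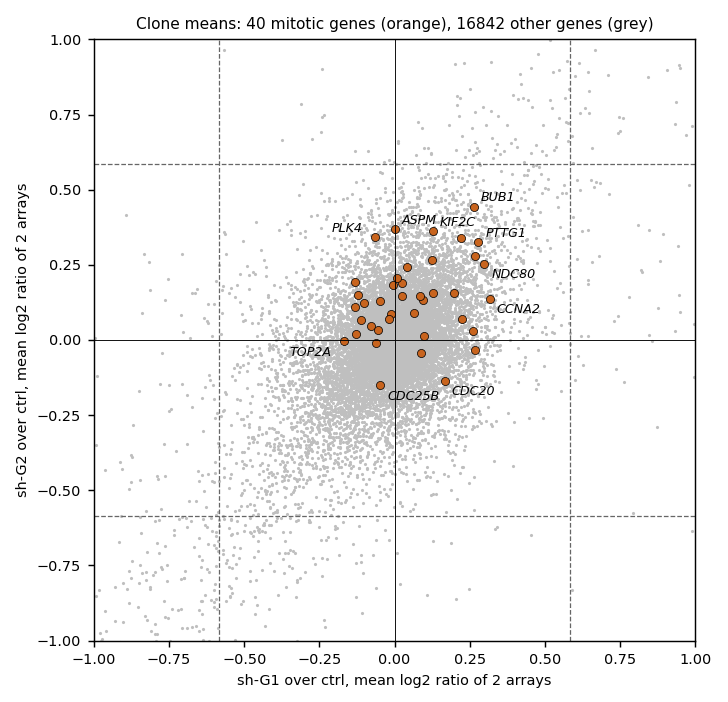
Mean log2 ratio over ctrl in sh-G1 (x axis) and in sh-G2 (y axis), each from 2 arrays, with the 40 tested mitotic genes in orange and the other 16842 named genes in grey. Solid lines mark 0 and dashed lines 1.5-fold, and 340 genes with a clone mean beyond 1 are not drawn. No orange point lies beyond a dashed line, and 21 lie in the quadrant above 0 in both clones.

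The values also differed between the dye orientations. The dye-swapped arrays had opposite signs for 26 of the 40 genes in sh-G1 (58.7% of all named genes) and for 22 in sh-G2 (63.7%), so that signs that turned with the dyes were about as frequent as on the whole array. The array with knockdown RNA in Cy3 gave the higher ratio in both clones for 23 genes (43.2% of all) and the lower ratio in both for 6 genes (34.8% of all). The median of the 40 genes was -0.07 and 0.05 on the Cy5 arrays of sh-G1 and sh-G2, and 0.15 and 0.21 on their Cy3 arrays. The means over dye-swapped arrays cancel a dye effect that is equal on both, and an effect that differs between them was not tested.

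**Figure D3:**
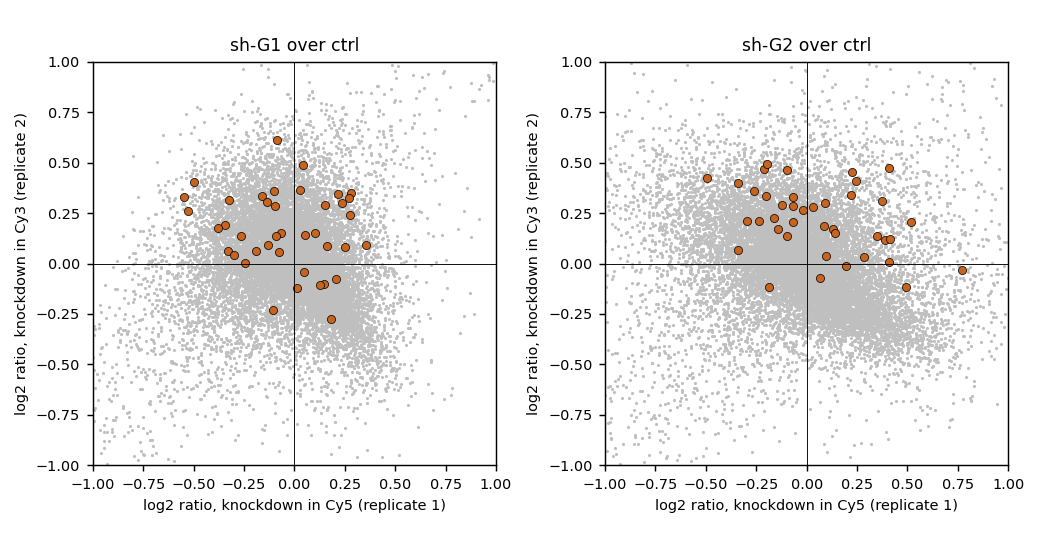
Log2 ratio of knockdown over ctrl on the array with knockdown RNA in Cy5 (x axis) and on the dye-swapped array (y axis), for sh-G1 (left) and sh-G2 (right), with the 40 mitotic genes in orange and other named genes in grey. Genes with an array beyond 1 (337 for sh-G1 and 498 for sh-G2) are not drawn in full. The orange points lie mostly above the horizontal line, with medians of 0.15 and 0.21 on the y axis, and spread to both sides of the vertical line.

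Several probes were kept for 10 of the 40 genes, and for 0 genes did their means differ by over 0.5. The probes of 4 genes had opposite signs. The widest distance was that of ASPM, whose probes averaged 0.18 and -0.26, and the dimmer one had -0.36 and -0.04 in sh-G1 and -0.75 and 0.09 in sh-G2. On the Cy5 array of sh-G2 these ASPM probes thus stood at opposite ends, at 0.77 and -0.75. CENPF, a large kinetochore protein, averaged 0.09 and -0.13, NEK2 0.01 and -0.17, and ESPL1 -0.01 and 0.08. The probes of KIF11 averaged 0.18 and 0.16, those of NDC80 0.28 and 0.14, and those of PLK4 0.14 and 0.01. The dimmer NDC80 probe had 0.05 and 0.54 in sh-G1 and -0.31 and 0.27 in sh-G2. All 51 tested probes were well above background in both channels on all 4 arrays, with log2 average intensities from 7.86 to 15.66 beside a median of 9.23 over all probes tested.

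The promoters of these genes were searched for the elements through which G2 genes are known to be regulated, the cell cycle genes homology region (CHR, here TTTGAA or TTTAAA) that MuvB binds and the CCAAT box of NF-Y. RefSeq promoter windows of 250 bases before to 50 bases after the annotated start (build GRCh38.p14) were found for 35 of the 42 genes, with 47 windows in all. On either strand, a CHR was present in 74.5% of the windows of the list and in 24.0% of all 35116 windows, and a CCAAT box in 72.3% and 34.6%. Both kinds stood together in 55.3% of the windows of the list and in 9.27% of all. The other lists held them too. In the 62 windows of the other mitotic genes a CHR was present in 58.1%, a CCAAT box in 61.3% and both in 43.5%, and in the 25 windows of the DNA replication and G1/S genes the shares were 16.0%, 76.0% and 8.0%. CHR matches had a median position of -31 and CCAAT boxes of -85 relative to the start. Matches are matches of letters, and binding was not measured. The windows of 3 genes are shown. PTTG1 and KIF20A are shown as the genes with both elements and the highest means, and CDK1 as the kinase of mitotic entry, each 5′ to 3′ on the strand of the gene with CHR and CCAAT matches of either strand in capitals (ATTGG and TTCAAA are the reverse complements of CCAAT and TTTGAA).
PTTG1, chr5:160421605-160421904, plus strand: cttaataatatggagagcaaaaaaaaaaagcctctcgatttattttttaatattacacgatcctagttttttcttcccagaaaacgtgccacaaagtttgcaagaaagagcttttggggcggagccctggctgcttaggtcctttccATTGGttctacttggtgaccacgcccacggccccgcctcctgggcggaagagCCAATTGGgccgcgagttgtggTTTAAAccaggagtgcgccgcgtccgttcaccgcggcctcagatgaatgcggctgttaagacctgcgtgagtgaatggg
KIF20A, chr5:138178862-138179161, plus strand: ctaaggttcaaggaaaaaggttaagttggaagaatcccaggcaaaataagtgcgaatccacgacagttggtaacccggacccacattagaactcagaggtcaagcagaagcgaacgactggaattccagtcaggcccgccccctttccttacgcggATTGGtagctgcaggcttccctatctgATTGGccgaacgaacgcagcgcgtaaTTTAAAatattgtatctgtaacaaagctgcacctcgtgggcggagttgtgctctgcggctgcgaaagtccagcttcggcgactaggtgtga
CDK1, chr10:60778228-60778527, plus strand: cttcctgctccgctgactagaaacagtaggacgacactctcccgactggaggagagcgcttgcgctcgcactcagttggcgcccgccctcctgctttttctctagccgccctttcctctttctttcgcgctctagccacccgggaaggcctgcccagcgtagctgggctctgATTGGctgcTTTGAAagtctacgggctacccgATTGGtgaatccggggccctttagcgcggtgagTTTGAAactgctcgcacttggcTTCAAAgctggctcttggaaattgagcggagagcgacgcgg
In PTTG1 the single CHR match began at -29 and the CCAAT matches at -103, -51 and -48, the last pair overlapping. In KIF20A the CHR match began at -41, with CCAAT matches at -94 and -67. CDK1 held CHR matches at -69, -13 and 10 and CCAAT matches at -78 and -46. The table gives PTTG1 and CDK1 another window each, for another annotated start, overlapping the printed one. From the other start of PTTG1 the same matches lay at -84 (CHR) and at -158, -106 and -103 (CCAAT). From the other start of CDK1, further CHR matches began at -161 and -131 and a CCAAT match at -150, none of them in the printed window. The mean log2 ratios of these genes were 0.30, 0.27 and 0.14, none of them called by limma. BUB1 and CCNA2, which also stood among the highest, had CCAAT matches but neither of these CHR letter strings in their windows.

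**Figure D4:**
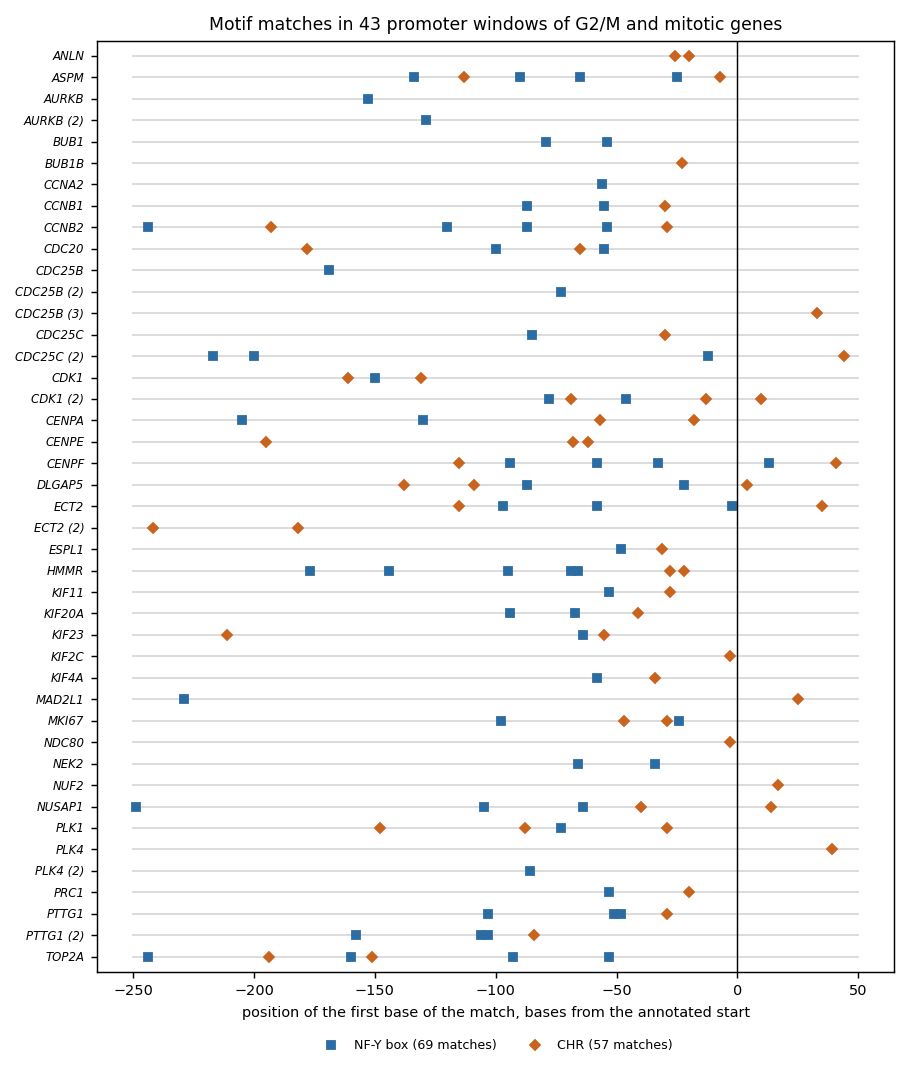
Position of motif matches (x axis, bases from the annotated start at 0) in the 43 promoter windows of G2/M and mitotic genes that hold at least 1 match (y axis, later windows of a gene numbered in parentheses), with blue squares for the NF-Y box (69 matches) and orange diamonds for the CHR (57 matches). The NF-Y boxes have their median at -85 and the CHR matches at -31, and 4 windows with no match are not drawn.

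Other genes of the cell cycle were examined in 5 lists, and 0 of their genes were called by limma in either direction. Among 58 other mitotic genes the median of the means was 0.05, with 22 above 0 in both clones and 11 below. INCENP, the scaffold of the chromosomal passenger complex, lay furthest from 0, at -1.19 and 0.27 in sh-G1 and -1.39 and -0.20 in sh-G2 (mean -0.63 ± 0.11, SE, n = 2 clones; limma adjusted p = 0.165). DEPDC1, a gene expressed in mitotic cells, was below 0 on all 4 arrays (mean -0.43 ± 0.06, limma adjusted p = 0.130). LMNB1, which encodes lamin B1 of the nuclear envelope, averaged -0.40 ± 0.08 (limma adjusted p = 0.211). It had -0.77 and 0.16 in sh-G1 and -1.08 and 0.10 in sh-G2, so that its sign followed the dye in both clones. The 16 APC/C genes, whose products degrade securin and cyclin B, had a median of 0.07, with ANAPC15 (0.24), ANAPC16 (-0.19) and FBXO5, an APC/C inhibitor (0.19), furthest from 0. The sign of FBXO5 followed the dye in both clones. The 11 tested genes of the DREAM and MuvB complexes had a median of -0.04, with E2F5 (0.22), RBL1 (0.14) and LIN9 (-0.12) furthest from 0. For RBL1 and LIN9, too, the sign followed the dye in both clones.

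The 14 brakes of mitotic entry had a median of 0.01 and the widest range, from -1.13 to 0.42. CCNG2, an unconventional cyclin linked to arrest, stood at -1.55 and -1.12 in sh-G1 and at -0.80 and -1.07 in sh-G2, so every array lay beyond 1.5-fold, but with 2 clones its mean of -1.13 ± 0.12 missed the threshold (limma adjusted p = 0.086). GADD45B, a stress-response gene, had -0.70 and -0.39 in sh-G1 and -0.78 and -0.42 in sh-G2 (mean -0.57 ± 0.06, limma adjusted p = 0.080). CDKN1A, which encodes the CDK inhibitor p21, had 0.64 and 0.65 in sh-G1 and 0.0048 and 0.37 in sh-G2 (mean 0.42 ± 0.14, limma adjusted p = 0.367). These means were larger in size than any mean of the 40 mitotic genes. The 22 genes of DNA replication and G1/S had a median of 0.10, as the 40 mitotic genes did. Of the 22, 14 lay above 0 in both clones and 4 below, beside 21 and 3 of the 40. On all 4 arrays 6 of the 22 lay above 0 and 2 below, beside 8 and 0 of the 40. At an unadjusted p of 0.05 by limma there were 8 of the 22, 6 of them on the high side. CCND1, the G1 cyclin D1 (-0.43 ± 0.18), PCNA, the replication clamp (0.32 ± 0.06), and CCNE1, cyclin E1 (-0.27 ± 0.07), lay furthest from 0. Their limma adjusted p-values were 0.458, 0.189 and 0.286. CCND1 had -0.23 and -8.6e-06 in sh-G1 and -1.35 and -0.13 in sh-G2, so that the Cy5 array of sh-G2 stood apart. PCNA lay above 0 and CCNE1 below 0 on every array.

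**Figure D5:**
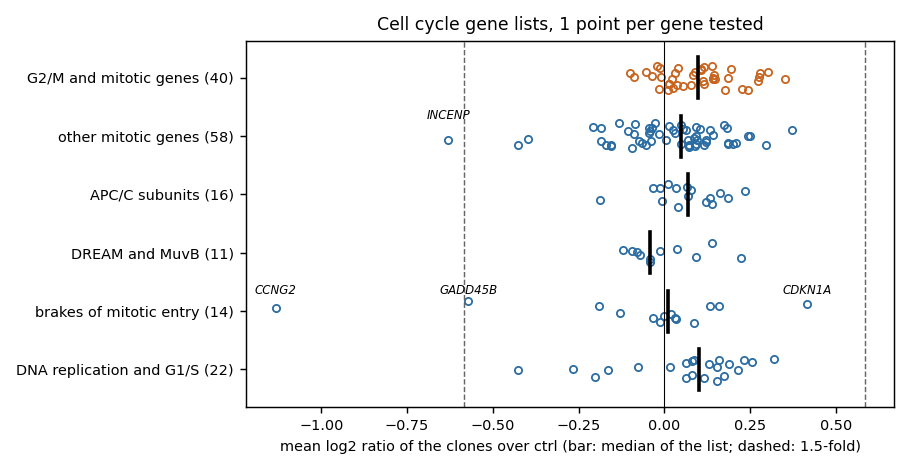
Mean log2 ratio of the clones over ctrl (x axis) for each tested gene of 6 cell cycle lists (y axis, number of genes in parentheses), with black bars for the median of each list and dashed lines at 1.5-fold. The mitotic genes (orange) lie between -0.10 and 0.35 with a median of 0.10, and the widest range is that of the brakes of mitotic entry, with CCNG2 at -1.13 and CDKN1A at 0.42.

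The count of 0 called genes depended on how the arrays were counted. With the 4 arrays in the fit and the clone as a random block, 5 of the 40 genes were called higher and 0 lower by limma, where 2.71% and 5.35% of all named genes were called. These were PTTG1 (adjusted p = 0.014), KIF20A (0.023), NDC80 (0.025), BUB1B (0.038) and BUB1 (0.048), with the same means as above. That fit takes arrays of 1 clone as further samples, although the clones remain 2.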

How the data were processed

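Of the scanner output of 4 Agilent arrays of 2 colours, the median intensity and local background intensity of each spot were used as the authors deposited them. The labels name Agilent Feature Extraction 8.5.1.1. The software's log10 ratio (Cy5 over Cy3) of each spot, as the authors deposited it, and the log10 values of the series matrix, served as alternatives. In the matrix the column of sh-G1 replicate 2 equals the error of the log ratio, and its other 3 columns equal the deposited log10 ratio, so that column was left out. Groups and dyes were taken from the labels. How the authors normalised the arrays is not given in the sources used here.

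Marked outlier spots were removed. Normexp (offset 50) corrected the background, ratios were normalised within arrays by loess, turned to log2 knockdown over ctrl, and averaged per probe. The filter asked on every array for a signal well above background in 1 channel or both, and passed 39152 of the 40905 probes with a value on all arrays. Probes were named by accession through a RefSeq gene table (GRCh38.p14), which named 25398 of 41000. A gene was represented by its brightest probe kept.

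Clone means (n = 2) were tested against 0 with limma 3.58.1 (lmFit, eBayes with a trend on average intensity) under R 4.3.3, with p-values adjusted by Benjamini-Hochberg over all probes kept and a threshold of 0.05. The difference between the clones was fitted on 4 arrays with terms for clone and dye. Statmod 1.5.0 served for the random block. Figures used Python 3.11.15, pandas 2.3.3, numpy 2.4.6 and matplotlib 3.10.9. Precision is limited by the number of arrays. The fits were tested on simulated data. There the test of the clone means recovered large changes and made more false calls than its threshold implies. It missed nearly all of the smallest changes planted, which were larger than any mean of the mitotic genes. The simulated clones varied independently of each other, with no error shared through ctrl, so false calls from a shared ctrl were not measured.

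The members, gene lists, tests and alternatives were chosen with earlier results of these data known. The genes named are GALNT3, the 10 members with the highest and the 10 with the lowest mean, members called or at least 1.5-fold changed on both arrays of a clone, members whose probes differ by over 0.5, 8 fixed members (CDK1, CCNB1, PLK1, AURKA, AURKB, FOXM1, MKI67 and TOP2A), and, of the other lists, called genes and the 3 furthest from 0. Other members (PLK4, TTK, CDC20, KIF4A, KIF23, CENPA, CENPE, CENPF and MAD2L1) are named beside counts or comparisons of genes and were chosen after their values were seen. A window is printed for 3 of the 15 named members with both promoter elements. Alternatives were the deposited ratios, other background corrections and centring, other filters, each array left out, gene means, ctrl given the clones' spread, the random block, no dye term and a 2-fold rule.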

Additional observations from a re-analysis of the deposited data

How the results depend on the processing

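The count of genes called lower by limma was 0 under every alternative run, the count called higher was 0 under all but the random block (5 of 40), and 0 genes were called different between the clones wherever that fit could be made. The genes below 0 on all arrays, 0 in the report, numbered 2 with the software's own log ratios, 1 with median centring and 2 with the series matrix values. In the matrix 14 genes were above 0 on all arrays, against 8, over its 3 usable arrays. Leaving out 1 array in turn gave 8 to 17 genes above 0 and 0 to 1 below 0 on the arrays left, 0 to 1 genes at least 1.5-fold changed in either clone, and medians of -0.07 to 0.15 in sh-G1 and 0.05 to 0.21 in sh-G2. With 3 arrays the difference between the clones had no residual degrees of freedom and was not tested. The arrays of a number share only their dye orientation, which is the block in the comparison of the clones. With no replicate block (dye orientation left out) 0 of the 40 genes were called different. The median of all named genes moved by less than 0.1 under each scaling.

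Of 26 named members, 10 kept their sign in all alternatives. Signs turned, in values that were not called, for RACGAP1 (0.039) with the software's ratios, for HMMR (-0.0062) and NEK2 (-0.0089) with median centring, for ASPM (-0.039), ESPL1 (0.034) and NEK2 (-0.079) with the mean of all probes, and for CCNB1 (-0.041), CDC25C (0.13), ESPL1 (0.063), KIF11 (-0.042), NEK2 (-0.027), NUF2 (0.0069), PLK1 (-0.016) and RACGAP1 (0.036) with the series matrix. Without 1 array in turn, the means ranged from -0.016 to 0.39 for ASPM, -0.022 to 0.13 for AURKA, -0.041 to 0.33 for AURKB, -0.045 to 0.26 for CCNB1, -0.17 to 0.14 for CCNB2, -0.21 to 0.014 for CDC25B, -0.15 to 0.075 for CDC25C, -0.11 to 0.087 for ESPL1, -0.13 to 0.15 for HMMR, -0.055 to 0.29 for MKI67, -0.047 to 0.075 for NEK2, -0.11 to 0.086 for NUF2, -0.14 to 0.031 for NUSAP1 and -0.24 to 0.20 for RACGAP1. With the sign kept, they ranged from 0.027 to 0.26 for CDK1, 0.12 to 0.27 for DLGAP5, 0.093 to 0.26 for KIF11, 0.088 to 0.20 for PLK1 and -0.12 to -0.052 for TOP2A, none of them called. The cause was not tested. A single ctrl clone, 2 knockdown clones with 1 shRNA and arrays that may share RNA limit every value, and smaller changes than the intervals could not be told from 0.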
